A study of Mus musculus with 18 samples.

Results

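The genes described here mark T cells, B cells and plasma cells, together with the chemokine that draws B cells into follicles: Trac, Cd3e, Cd3d, Gata3, Igkc, Ighm, Cd79a, Ms4a1, Jchain and Cxcl13. They were chosen by name, as the rows of the count table whose Ensembl identifier carries one of these symbols in GENCODE release M21. All 10 were found among the 16452 genes of the table, and none was lost to a filter on low counts. Epididymal fat (eWAT), the white fat pad beside the epididymis, was sequenced as bulk RNA from male wild-type C57BL/6 mice of a generation labelled Fm. The mice descended from zygotes that had been microinjected with the microRNA let-7d, with let-7e or with a negative control, and the diet in all 3 groups was chow up to week 6 and then the diet labelled LFD up to week 15, whereas the age label reads 24 weeks. The question put to these genes was which libraries carry lymphoid tissue and whether their levels differed between the groups.

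T cells recognise antigen with a receptor whose alpha and beta chains sit in a complex with the CD3 proteins, and B cells with a membrane immunoglobulin that signals through CD79. Plasma cells are the secreting stage of the B cell lineage, and the J chain joins the IgM and IgA that they export into polymers. Visceral fat holds scattered lymphocytes and small lymphoid clusters rich in B-1 cells, and lymph nodes lie in or near some fat pads, so that a dissected pad can carry an uneven amount of lymphoid tissue.

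The injected microRNAs are shown first, since the groups are named for them. Both mature sequences are 22 bases long (RefSeq, GRCm38.p6), and the capitals mark the seed, the bases 2 to 8 through which a microRNA pairs with its targets.
mmu-let-7d-5p: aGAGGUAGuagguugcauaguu
mmu-let-7e-5p: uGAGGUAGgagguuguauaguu
The hairpins lie apart in the genome, with the mature let-7d at chr13:48536078-48536099 on the minus strand and the mature let-7e at chr17:17830366-17830387 on the plus strand. Counted from 1 at the 5′ end of let-7d, the mature forms differ by A1U, U9G and C16U, and the seed GAGGUAG is the same in both. A match to that seed (CTACCTC, searched on the transcript strand only) was present in the annotated 3′ UTR of 1 of the 10 genes, Ighm, against 9.10% of the 14001 genes with such a UTR. The stretch around it, with the match in capitals at chr12:113418769-113418775 on the minus strand, was as follows.
Ighm 3′ UTR site: cacagggacaCTACCTCtgggcctggg
No base of this site was tested for pairing, and the match is a description of letters only.

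Promoters are shown for the genes that set the leading library most apart from the rest, Jchain and Cxcl13. Each is the 250 bases before the RefSeq start site (GRCm38.p6), and capitals mark a TATA box (TATAAA, either strand).
Jchain (chr5:88527898-88528147, minus strand): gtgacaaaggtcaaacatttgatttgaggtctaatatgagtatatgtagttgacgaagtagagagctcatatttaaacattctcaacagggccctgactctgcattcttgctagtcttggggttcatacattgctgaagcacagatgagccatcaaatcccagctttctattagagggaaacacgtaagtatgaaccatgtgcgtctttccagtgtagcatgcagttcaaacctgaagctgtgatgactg
Cxcl13 (chr5:95956689-95956938, plus strand): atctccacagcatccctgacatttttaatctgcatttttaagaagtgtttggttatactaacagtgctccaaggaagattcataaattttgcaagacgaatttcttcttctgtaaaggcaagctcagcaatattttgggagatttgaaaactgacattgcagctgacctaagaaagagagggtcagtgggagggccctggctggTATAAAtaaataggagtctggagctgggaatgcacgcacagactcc
Of the 6 members with a promoter in the RefSeq table, Cxcl13 alone had the TATA letters, beginning at position -46, where 12.4% of all 32851 promoters have them somewhere in the window. The octamer ATTTGCAT, known from immunoglobulin promoters and searched on both strands, was in 0 of the 6 and in 1.601% of all promoters. Igkc and Ighm, the immunoglobulin chains among the members, had no promoter there and were not searched, so the 0 says nothing about them.

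The table held 17 libraries: control 1, 2, 3, 4 and 6, let-7d 1 to 6 and let-7e 1 to 6. A control replicate 5 named in the labels is not analysed here. Nothing in the labels says how many sires or litters stand behind a group, so the p-values below measure the spread between these samples. Library totals ran from 12717365 to 28972306 counts, and levels are given as CPM, counts scaled to 1000000 reads per library, after TMM scaling, a correction for library composition. Adipocyte genes were detected throughout, with the summed level of 8 of them between 29020 and 60800 CPM. Control 3 stands apart through genes of the vas deferens and epididymis (4 measured list genes summing to 17460 CPM, against 0.347 to 31.53 CPM elsewhere) and through smooth muscle genes, and control 6 through 7 spermatid genes (1404 CPM, against 0.155 to 66.8 CPM). Let-7d 1 and 2 and let-7e 1 and 2 belong to an earlier series of library identifiers, which holds no control, and the fitted comparisons carry this series as a term.

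Library let-7d 2 led most of the B cell and antibody genes among the 10. It was the highest of the 17 libraries for 5 members, Igkc, Cd79a, Ms4a1, Jchain and Cxcl13, and was beaten by a single library for Cd3e and Ighm. Over all genes it was highest for 3.88%. The same 5 members stood over 4 times their 17-library median there, against 0.413% of all genes. Control 6 came next: it was highest for Cd3e and Cd3d, the next highest for 6 members, and over 4 times the median for Igkc, Cd79a, Ms4a1 and Jchain. That library was highest for 12.7% of all genes and over 4 times the median for 4.21%. At the other end, let-7e 6 was the lowest library for Trac, Cd3d, Igkc, Ms4a1 and Jchain, where it was lowest for 8.27% of all genes. No other library was over 4 times the median for more than 1 member: control 1 was for Trac and control 3 for Gata3, where 0.529% and 4.28% of all genes were. Those libraries were each the highest for that gene (10.3% and 12.8% of all genes peaked there), and let-7d 6 was highest for Ighm (4.65% of all genes).

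**Figure D1:**
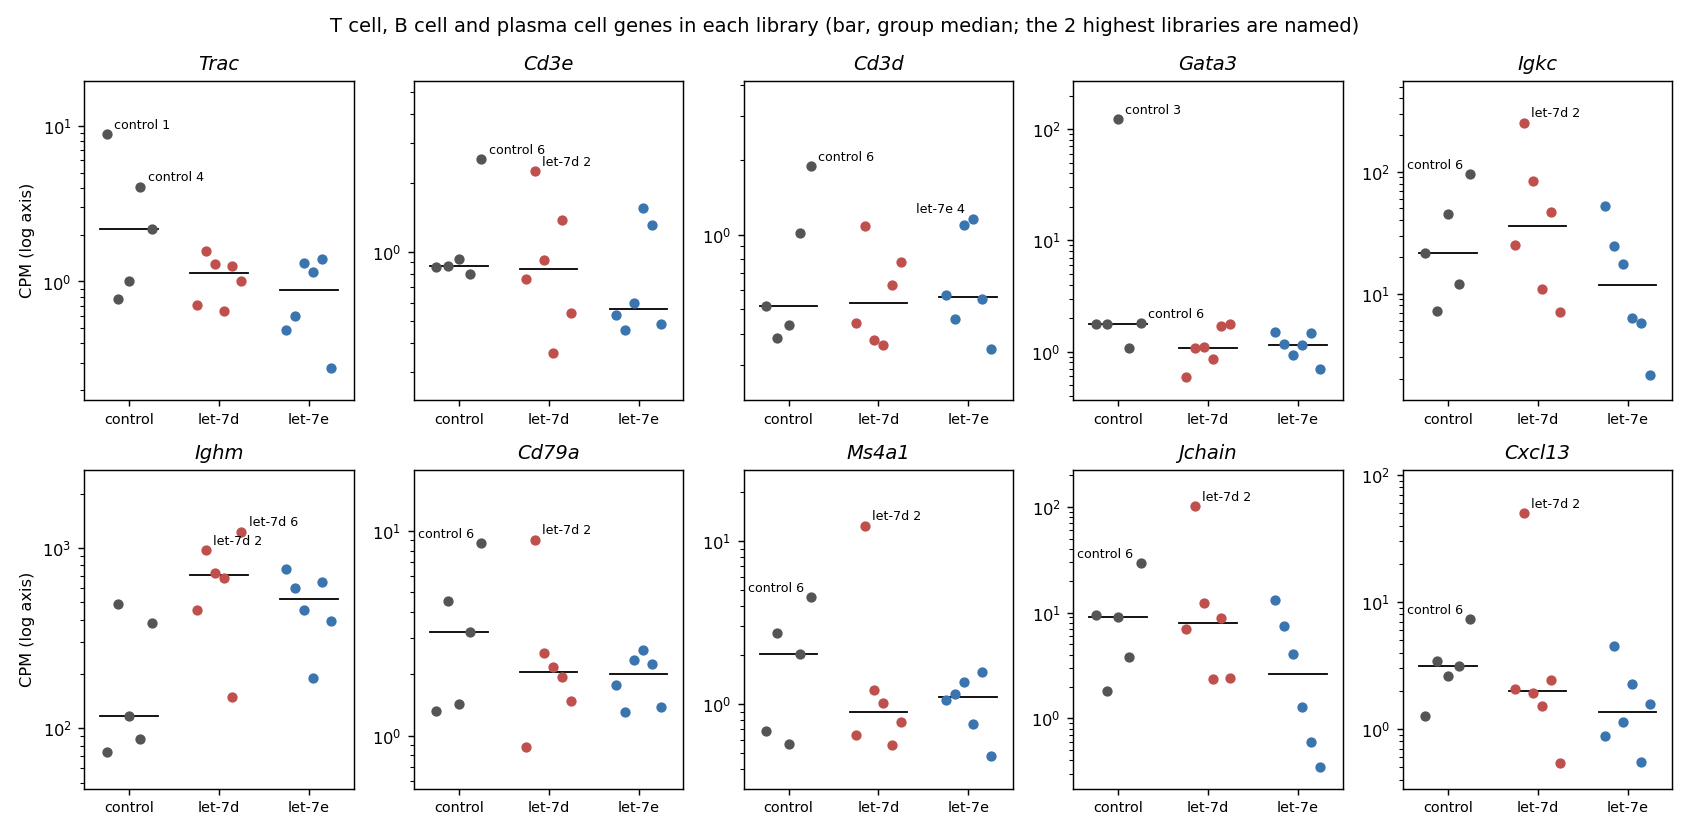
CPM (log axis) of each of the 10 genes in every library, by group, with a bar at the group median and the 2 highest libraries named. Let-7d 2 tops Igkc (252.3 CPM), Cd79a (9.02), Ms4a1 (12.4), Jchain (101.7) and Cxcl13 (50.1), control 3 tops Gata3 (123 CPM), and control 1 (8.82 CPM) and control 4 (4.06 CPM) lead Trac.

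Trac encodes the constant region of the T cell receptor alpha chain (chr14:54220521-54224206, plus strand). Its level was 8.82, 0.770, 1.00, 4.06 and 2.17 CPM in control 1, 2, 3, 4 and 6. The let-7d libraries ran from 0.649 over a median of 1.13 to 1.58 CPM, and the let-7e libraries from 0.276 over 0.876 to 1.40 CPM. Control 1, 4 and 6 lay above every let-7d and let-7e library, while control 2 and 3 lay among them. Control 1 was not high for the CD3 genes: per length, Trac stood at 44.8 times Cd3e there, against a 17-library median ratio of 4.64. Dad1, a gene that lies 11272 bases past its end, was at 105 CPM in control 1, within its range of 73.8 to 118 CPM over the libraries.

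Cd3e and Cd3d encode the epsilon and delta chains of the CD3 complex, which carries the receptor's signal into the cell, and they lie beside each other on chromosome 9 (44998740 to 45009627, minus strand, and 44981786 to 44987339, plus strand). Cd3e was at 0.859, 0.866, 0.933, 0.798 and 2.54 CPM in control 1, 2, 3, 4 and 6. It ran from 0.360 over 0.842 to 2.26 CPM in the let-7d libraries and from 0.456 over 0.564 to 1.56 CPM in the let-7e libraries. Control 6 and let-7d 2 were the top 2 libraries, at 2.95 and 2.63 times the median, and the other 15 overlapped across the groups. Cd3d was at 0.516, 0.385, 0.433, 1.01 and 1.88 CPM in the same controls. Its let-7d range was 0.360 to 1.08 CPM around a median of 0.532, and its let-7e range 0.345 to 1.16 CPM around 0.561. Again control 6 was highest, with let-7e 4 second. Between 5 and 62 reads stand behind a library's value of either gene, so differences among the lower libraries lie within a few reads. The predicted genes Gm48719 and Gm48720 overlap Cd3e, and the strand setting of the counting is not given in the sources used here.

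Gata3 encodes a transcription factor of T helper 2 cells and innate lymphoid cells, which is also made in several epithelia (chr2:9857078-9890034, minus strand). The controls held 1.78, 1.78, 123, 1.09 and 1.80 CPM. All 12 libraries of the injected groups lay between 0.586 and 1.78 CPM, with medians of 1.09 for let-7d and 1.16 CPM for let-7e. Control 3 was thus 68.3 times the next library, while the other 4 controls overlapped both groups. In that library the CD3 genes were at 0.933 and 0.433 CPM, close to their medians of 0.859 and 0.550 CPM, whereas Akr1b7 and Crisp1, secreted by the vas deferens and the epididymis, stood at 14040 and 2927 CPM. Ly6d and Blnk, of the B cell list, were also highest there (13.8 and 20.4 CPM), with Cd79a at 1.43 and Ms4a1 at 0.567 CPM. Whether Gata3 came from those neighbouring organs was not tested.

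Igkc encodes the constant region of the kappa light chain, the commoner of the light chains of mouse antibodies (chr6:70726435-70726966, plus strand). It was at 21.5, 7.27, 44.9, 11.9 and 94.98 CPM in control 1, 2, 3, 4 and 6. Among let-7d libraries it ran from 7.12 over 35.8 to 252.3 CPM, and among let-7e libraries from 2.14 over 11.9 to 52.8 CPM. The 3 groups overlapped, and the span from let-7e 6 to let-7d 2 was 118-fold. After let-7d 2 came control 6, then let-7d 3 (84.1 CPM) and then let-7e 1 (52.8 CPM).

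Ighm encodes the heavy chain of IgM (chr12:113418558-113422730, minus strand), and it was the most abundant member in the median library, at 239 CPM per kilobase of exon against 40.5 for Igkc and 1.48 for Cd79a. Its level was 73.8, 487, 117, 87.2 and 384 CPM in control 1, 2, 3, 4 and 6. The let-7d libraries held 148 to 1232 CPM around a median of 704, and the let-7e libraries 189 to 764 CPM around 523. Control 1, 3 and 4 lay below all 12 libraries of the injected groups, and control 2 and 6 among them. No library was over 4 times the median. Relative to Cd79a, which B cells need to bring IgM to their surface, Ighm per length ranged from 21.1 times in control 4 to 648 times in let-7d 6.

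Cd79a encodes the signalling chain Ig-alpha of the B cell receptor (chr7:24897381-24902197, plus strand). The controls held 1.32, 4.52, 1.43, 3.19 and 8.67 CPM. The let-7d libraries ran from 0.879 over 2.05 to 9.02 CPM, and the let-7e libraries from 1.30 over 2.003 to 2.60 CPM. Let-7d 2 and control 6 were level with each other and the lower of them was 1.92 times control 2, the next library. Ms4a1, which encodes the B cell surface protein CD20 (chr19:11249675-11266241, minus strand), was at 0.688, 2.74, 0.567, 2.03 and 4.54 CPM in the same controls. It ran from 0.562 over 0.891 to 12.4 CPM with let-7d and from 0.484 over 1.11 to 1.57 CPM with let-7e. Here let-7d 2 was 2.74 times control 6, and all groups overlapped.

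Jchain encodes the joining chain of polymeric IgM and IgA, made by plasma cells and other secreting B cells (chr5:88519809-88527891, minus strand, promoter printed above). Control 1, 2, 3, 4 and 6 held 9.39, 1.83, 9.06, 3.77 and 29.2 CPM. The let-7d libraries ran from 2.38 over 7.93 to 101.7 CPM and the let-7e libraries from 0.345 over 2.65 to 13.3 CPM. Its span of 294-fold was the widest of the 10, and the groups overlapped.

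Cxcl13 encodes the chemokine that stromal and follicular dendritic cells use to draw B cells bearing CXCR5 (chr5:95956951-95961068, plus strand). It was at 1.26, 3.42, 2.60, 3.12 and 7.32 CPM in the controls. The let-7d libraries held 0.541 to 50.1 CPM around a median of 2.004, and the let-7e libraries 0.550 to 4.53 CPM around 1.37. Let-7d 2 alone stood apart, and the other 16 libraries overlapped across the groups. It held 1110 reads, was 6.84 times control 6 and lay 24.1 times over the median, and without it the let-7d mean of 9.76 CPM became 1.70 CPM.

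The B cell list was a set of 26 marker genes, of which 22 were in the table. Control 6 was over 4 times the median for 8 of them (36.4%, against 4.21% over all genes). Let-7d 2 was so for 14 (63.6%, against 0.413% over all genes). In let-7d 2 these included Cxcr5, the receptor of CXCL13, at 2.84 CPM, Fcer2a, the IgE receptor CD23 of follicular B cells, at 2.62 CPM, and Pou2af1, a co-activator of the octamer-binding factors, at 8.57 CPM. Control 6 held the same genes at 2.495, 1.35 and 4.05 CPM, and it was the highest library for Pax5, the factor that fixes B cell identity, at 7.77 CPM. That library also held the 7 spermatid genes at a summed 1404 CPM, and the part of that material in its Pax5 value was not tested. The most abundant genes of the list, none of them over 4 times the median in either library, were Ebf1, Cd37 and Blnk. Ebf1, which fat cell precursors also express, was at 238 CPM in let-7d 2 and 150 in control 6, around a median of 151. Cd37 was at 35.2 and 38.7 CPM around 21.3, and Blnk at 8.93 and 9.04 CPM around 7.41. The summed level of the list, to which Ebf1 gave most, was 428 CPM in let-7d 2 and 285 CPM in control 6, against 155 to 285 CPM elsewhere.

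The T cell genes ordered these 2 libraries the other way round. Of 30 listed genes of T cells and receptor signalling, 25 were in the table. Control 6 was the highest library for 15 of these (12.7% over all genes) and over 4 times the median for 5 (4.21% over all genes). Those 5 were Cd5 at 1.88, Cd6 at 2.70, Cd8a at 3.60, Lef1 at 2.66 and the receptor beta constant gene Trbc2 at 2.78 CPM, a naming made after their values were seen. Lef1 was also over 4 times its median in control 3 (2.03 CPM) and let-7d 1 (2.05 CPM), where epithelium genes summed to 633.5 and 753.1 CPM. Let-7d 2 was over 4 times the median for 0 of the 25 (0.413% over all genes). It was highest for 3 (3.88% over all genes), among them Il7r at 4.78 and Trdc at 1.26 CPM. Ccr7, by which naive lymphocytes enter lymph nodes, was at 2.495 CPM in control 6 and 1.31 in let-7d 2, around a median of 0.846. Cd247, Lcp2 and Cd2 were the most abundant genes of the list, at means of 8.43, 8.31 and 3.40 CPM. Lcp2 and Cd247 also serve in other blood cells, and Cd247 was at 8.44 CPM in let-7d 2 and 7.98 in control 6 around a median of 8.22. The spermatid genes were also high in control 6, among them Prm2 at 331 CPM, a likeness seen in that library only. Stat4 stood at 29.5 CPM there against 0.322 to 0.992 CPM elsewhere. The part of spermatid material in the T cell values of control 6 was not tested.

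Among 12 measured plasma cell genes, control 6 was over 4 times the median for 3 (Ighg2b, Mzb1 and Tent5c), where 4.21% of all genes were. Let-7d 2 was so for 2 (Ighg2b and Mzb1), where 0.413% of all genes were. The Ighg2b median was only 0.0725 CPM, so control 6 passed on 0.450 CPM (11 reads), beside 31.1 CPM in let-7d 2. Let-7e 1, 3 and 6 and let-7d 6 passed for Ighg2b as well. Xbp1, Txndc5 and Sdc1, the most abundant and not confined to plasma cells, had means of 222, 150 and 22.9 CPM, with Xbp1 at 191 CPM in let-7d 2 and 286 in control 6 around a median of 226. Of 16 genes that organise lymphoid tissue, 9 were in the table and 0 were over 4 times the median in any library. Cxcl12, which is made by stromal cells, was at 118 CPM in let-7d 2 and 258 in control 6 around a median of 176, Ltbr at 75.2 and 76.7 CPM around 102, and Vcam1 at 28.3 and 25.5 CPM around 24.7. The lymph node and follicle markers Ccl19, Ccl21a, Lta, Tnfsf11, Madcam1, Glycam1, Fdcsp and Cr2 had no row in the table used here and were not measured. Myeloid genes were summed at 1017 CPM in let-7d 2 and 901 in control 6, within the range of 413 to 1165 CPM, and 0 of the 13 were over 4 times the median in either.

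**Figure D2:**
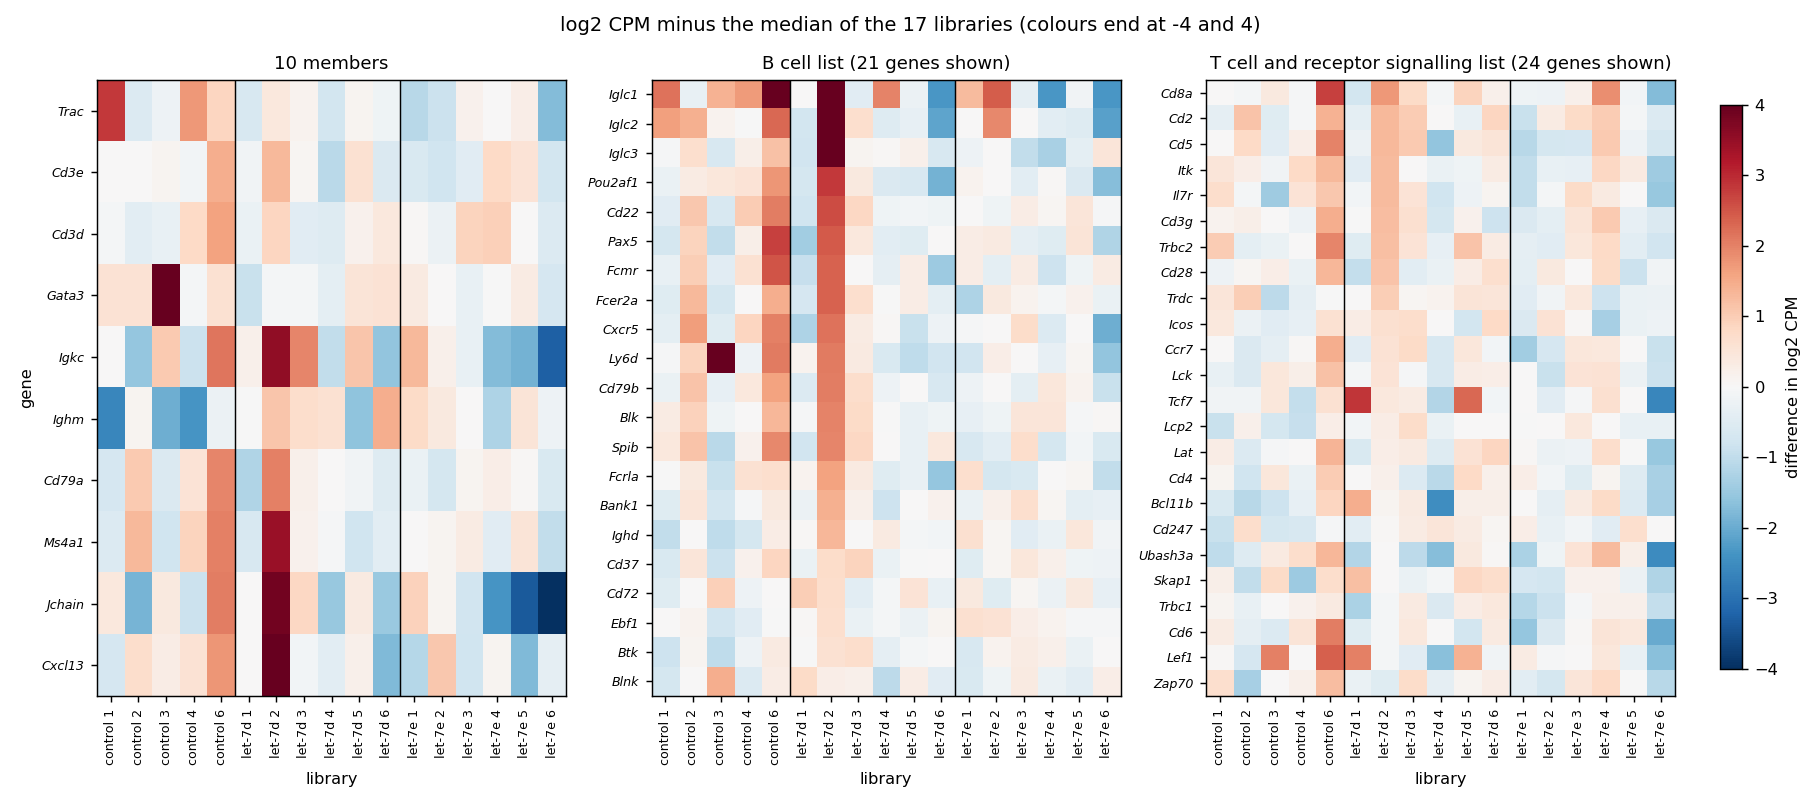
Difference of log2 CPM from the 17-library median for the 10 genes, 21 of the 22 measured B cell genes and 24 of the 25 measured T cell genes (rows) in every library (columns, groups parted by lines); genes in the right-hand panels are ordered by let-7d 2. The column of let-7d 2 is red through the upper B cell panel (over 4 times the median for 14 of all 22 genes) and that of control 6 is red through much of the T cell panel (highest for 15 of all 25).

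Antibody genes gave a finer view of the same libraries. Of the 15 immunoglobulin genes in the table, let-7d 2 was the highest library for 9 (3.88% over all genes). It was the highest or second for 14, for which no share over all genes was taken. Control 6 was highest for 1 (12.7% over all genes). The table had already passed a CPM filter, so a gene near 0 in most libraries may hold its row only through its high libraries. Iglv2 was such a gene, at 19.2 CPM in let-7d 2 around a median of 0.0846 CPM. These counts therefore describe the rows present and are no test of let-7d 2. Ighg2b, the heavy chain of IgG2b, was at 31.1 CPM (689 reads) in let-7d 2 and 0.450 CPM (11 reads) in control 6. It was at 1.63 CPM in let-7e 1, 1.42 in let-7e 3, 0.967 in let-7e 6 and between 0 and 0.619 CPM in the remaining libraries. Igha, the heavy chain of IgA, ran from 0.138 CPM in let-7e 6 to 8.66 CPM in let-7d 2, with control 6 next at 6.38 CPM. Ighd, the heavy chain of IgD on naive B cells, was at 8.62 CPM in let-7d 2, 5.29 in let-7e 1 and 4.17 in control 6, around a median of 3.37 CPM.

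The lambda share of light-chain constant-region counts (Iglc1, Iglc2 and Iglc3 against Igkc, not scaled for length) was 18.4% in let-7d 2 (exact 95% interval 17.5 to 19.3) and 20.7% in control 6 (19.2 to 22.2). It was 2.10% in let-7d 3 (1.52 to 2.82), 2.73% in let-7d 5 (1.70 to 4.15), 3.61% in let-7d 1 (2.48 to 5.06), 3.77% in let-7e 1 (2.79 to 4.99) and 4.54% in control 3 (3.51 to 5.75). These 5 libraries, with 747 to 2006 kappa reads each, lay below let-7d 2, control 6 and let-7e 2 (18.6%, 16.0 to 21.3) with intervals that do not meet, although the intervals cover counting error only. The other 9 libraries, with 31 to 376 kappa reads, ran from 4.17% (let-7d 6) to 28.8% (control 2). The 3 lambda genes are close copies of each other, so their reads may be split or lost by the alignment, and the share is uncertain as an absolute value. Let-7d 3, next to control 6 in Igkc, was the highest library for the variable genes Igkv14-126 (25.3 CPM) and Ighv11-2 (13.96 CPM), a light and heavy pair known from B-1a cells that bind phosphatidylcholine. Let-7d 2 held them at 13.4 and 5.19 CPM. Over the 17 libraries these variable genes had a Spearman rho of 0.975 (Pearson r 0.968), a pair chosen after its values were seen and given with no test.

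**Figure D3:**
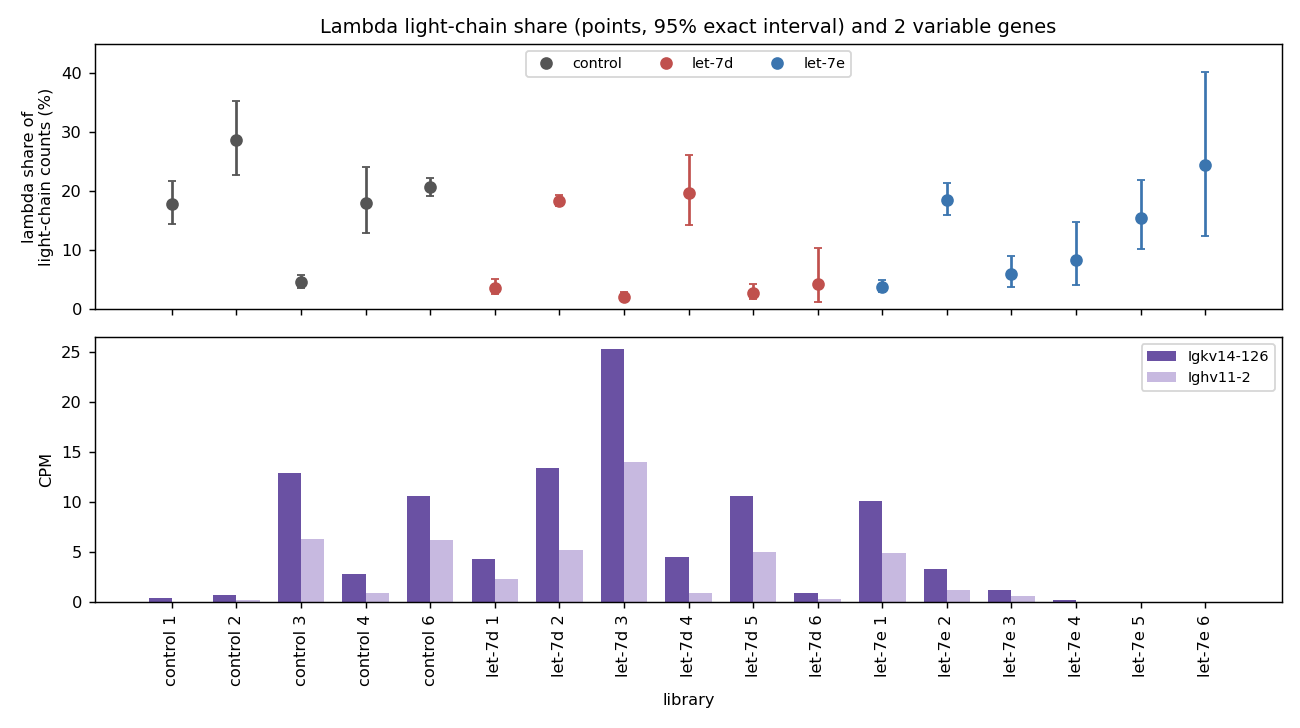
Upper panel, lambda share of light-chain constant-region counts in percent with exact 95% intervals, coloured by group; lower panel, CPM of Igkv14-126 and Ighv11-2, bars from 0, for every library. Let-7d 3 has the lowest lambda share (2.10%) and the tallest bars (25.3 and 13.96 CPM), while let-7d 2 combines a share of 18.4% with 13.4 and 5.19 CPM.

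Whether the 10 genes vary together was asked over their 45 pairs, on log2 CPM over the 17 libraries, with permutation tests and Benjamini-Hochberg adjustment for 45 tests. Igkc and Jchain moved together most closely, with a Pearson r of 0.969 (permutation p = 1e-05, the smallest these permutations can give, adjusted p = 0.000225) and a Spearman rho of 0.961 (p = 1e-05, adjusted p = 0.00045). Without let-7d 2 and let-7e 6, the libraries farthest out in Igkc, r was 0.942, and within the 13 late libraries it was 0.955, while the 4 early libraries are too few for a value. Cd79a and Ms4a1 had an r of 0.901 (permutation p = 1e-05, adjusted p = 0.000225) and a rho of 0.765 (p = 0.00062, adjusted p = 0.0139), with r at 0.765 without control 6 and let-7d 2 and 0.919 within the late libraries. By rho these 2 of the 45 pairs passed, and by r 9 did. For 2 of those 9, r without the 2 libraries farthest out in the first gene of the pair was below 0.2, so the relation rested on those libraries. They were Ms4a1 with Cxcl13, from 0.738 to 0.122, and Cd79a with Cxcl13, from 0.679 to 0.169. Others of the 9 fell less far, among them Cd3e with Cd79a, from 0.687 to 0.291.

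The antibody-secreting genes and the B cell surface genes followed each other less closely, a difference that was not itself tested. Igkc and Cd79a had an r of 0.418 (permutation p = 0.0959, adjusted p = 0.205) and a rho of 0.172 (p = 0.509, adjusted p = 0.656). Ighm followed neither: its r was 0.0762 with Igkc (permutation p = 0.77, adjusted p = 0.825; rho 0.0833, p = 0.751, adjusted p = 0.779) and 0.16 with Cd79a (p = 0.547, adjusted p = 0.703; rho 0.13, p = 0.619, adjusted p = 0.733). Cd3e and Cd3d, which join in 1 complex, had an r of 0.62 (permutation p = 0.00791, adjusted p = 0.0395) and a rho of 0.507 (p = 0.0397, adjusted p = 0.272), and r was 0.317 without control 6 and let-7d 2.

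Among 13158 other genes, those most like Cd79a over the 17 libraries included the B cell lectin Cd22 (rho 0.902), Rasgrp1 (0.855) and Siglecg (0.843). Most like Cd3e were Rasal3 (0.868), Stat4 (0.843), the chemokine receptor Cxcr3 (0.814) and the cytokine receptor Il21r (0.792). Jchain was followed by Igkv14-126 (0.804), Brix1 (0.801), Ighv11-2 (0.789) and Yod1 (0.779). For Gata3 the closest were Taf4 (0.772), Tmem255a (0.738), Psd (0.735) and Col11a2 (0.718), and for Cxcl13 they were Trp53bp1 (0.730), Lgals8 (0.723), Zfp263 (0.723) and Rapgef6 (0.721). The neighbours of Cd79a thus included the B cell surface genes Cd22 and Siglecg, those of Jchain a pair of antibody variable genes, and none of those nearest to Gata3 or Cxcl13 is on the T cell or B cell list. Sharing libraries and depth, such ranks describe likeness only.

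Ighm had its own neighbours, looked up after its values were seen: Asb12 (rho 0.904), Yipf5 (0.902), Rps6ka3 (0.892) and Ube2w (0.882). Gm22175, annotated as a microRNA gene at chr12:113425150-113425227, 2419 bases from Ighm and on the same strand, had a rho of 0.922 with it, and ran from 0.167 CPM in control 3 to 7.12 CPM in let-7d 6. Lep, which encodes the fat cell hormone leptin, also followed Ighm, with a Spearman rho of 0.819 and a Pearson r of 0.906. That r was 0.886 without control 1 and control 4 and 0.92 within the 13 late libraries. Lep was at 248 CPM in control 1, 339 in control 3 and 640 in control 4, the 3 libraries lowest in Ighm, and at 2267 CPM in let-7d 6, the library highest in Ighm, though let-7d 1 had more Lep (2546 CPM). These pairs were also chosen after the values were seen and carry no test.

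**Figure D4:**
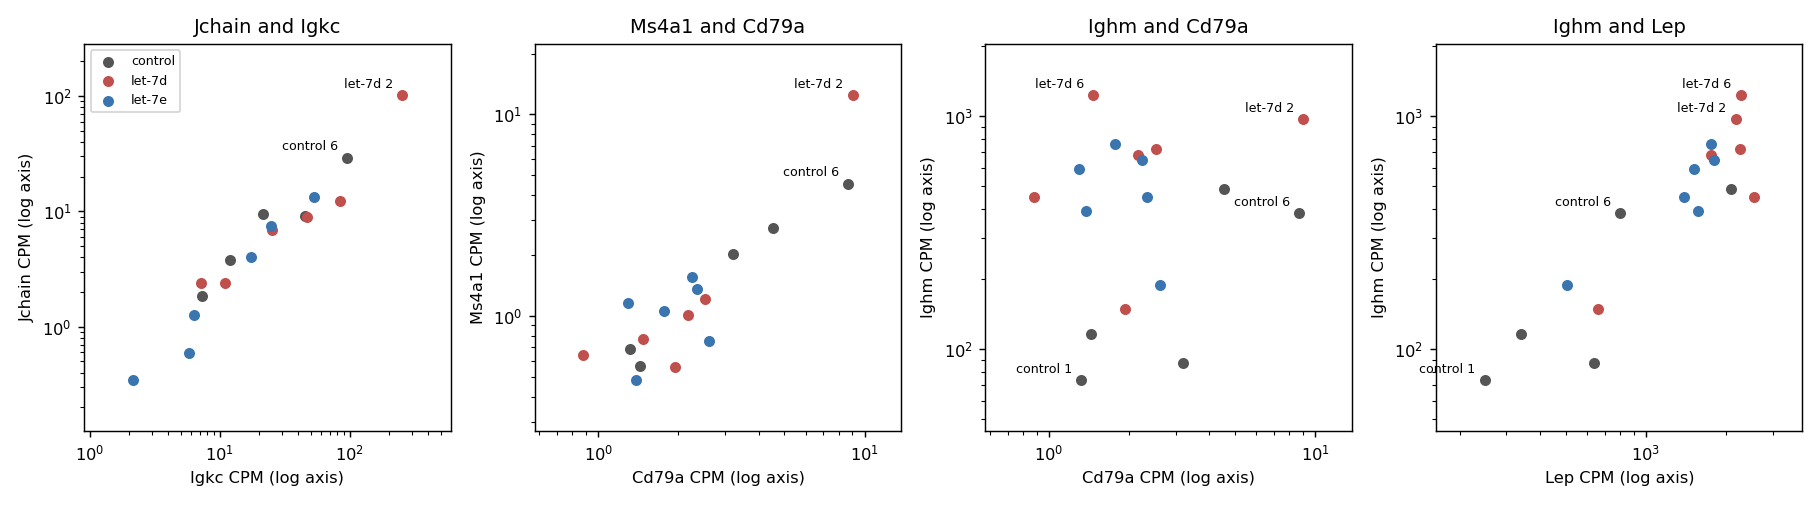
Pairs of genes across the 17 libraries, each point a library coloured by group, CPM on log axes. Jchain rises with Igkc along the whole range (rho 0.961), Ms4a1 rises with Cd79a (rho 0.765), Ighm does not line up with Cd79a (rho 0.13) and does with Lep (rho 0.819).

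The comparison of let-7d with control asked whether these transcripts differ in the fat of males from let-7d zygotes. In edgeR's quasi-likelihood test, adjusted by Benjamini-Hochberg across the table, 0 of the 16452 genes and hence 0 of the 10 passed at 0.05 (0% called). Unadjusted, 1676 genes (10.2%) had a p under 0.05, while DESeq2 called 10 after adjustment and limma-voom 0. Of the 10 genes, 1 was higher and 9 lower (57.5% of all genes were lower), with a median log2 fold change of -0.58 against -0.04 over all genes. Ighm alone was higher at an unadjusted p under 0.05 (3.11% of all genes were called higher this way), at 701 ± 381 CPM (SD, n = 6) against 230 ± 192 CPM (SD, n = 5). Its log2 fold change was 1.49 (SE 0.586, unadjusted p = 0.0218, edgeR adjusted p = 0.467), with 5 of 6 let-7d libraries above the control mean. Trac and Gata3 were lower at that level (7.08% of all genes were): the log2 fold changes were -1.48 (SE 0.618, edgeR adjusted p = 0.473) and -4.43 (SE 1.17, edgeR adjusted p = 0.456), with 0 of 6 let-7d libraries above the control mean of either. Without control 3 that of Gata3 was -0.40, and without control 1 that of Trac was -0.71. Igkc had a log2 fold change of -0.02 with an approximate 95% interval of -1.57 to 1.54, Cd3e one of -0.23 (-1.31 to 0.85) and Cd79a one of -0.60 (-1.83 to 0.63). For Igkc, Jchain, Cxcl13 and Ms4a1 the sign turned with the series term: without it the values were 0.97, 1.07, 1.46 and 0.40. The plain let-7d means of these genes (71.0, 22.5, 9.76 and 2.78 CPM) also lay above the control means (36.1, 10.7, 3.54 and 2.11 CPM), and each let-7d mean held let-7d 2, an early library. For none of the 10 did the groups lie apart.

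Let-7e against control, which uses the same 5 controls, posed the question for the other microRNA. Once more edgeR found 0 genes (0% called) after adjustment, although 1729 (10.5%) had an unadjusted p below 0.05, and DESeq2 found 15 and limma-voom 0. Of the 10 genes, 9 were lower (58.1% of all genes were) and Ighm was higher (0.99, SE 0.594, edgeR adjusted p = 0.57), with a median of -1.61 against -0.04 over all genes. At an unadjusted p under 0.05, 5 were lower, where 7.99% of all genes were, and 0 higher, where 2.52% were. These were Trac at -1.84 (SE 0.592), Gata3 at -4.41 (SE 1.22), Igkc at -2.11 (SE 0.848), Jchain at -2.83 (SE 0.855) and Cxcl13 at -1.81 (SE 0.781), with edgeR adjusted p-values of 0.356 to 0.443. Without control 3 Gata3 was at -0.40, and without control 1 Trac was at -1.07. With no series term, 2 of the 10 were lower at that level (Trac and Gata3), the median was -0.98, and Igkc stood at -0.98, Jchain at -1.24 and Cxcl13 at -0.95. Mean Jchain in the let-7e group was 4.49 ± 5.07 CPM (SD, n = 6), beside 10.7 ± 10.9 CPM (SD, n = 5) for the controls, and 1 of 6 let-7e libraries lay above the control mean. Without let-7d 2 and control 6, an alternative added after the values were seen, 2 of the 10 were lower at that level, Trac and Gata3. Igkc then stood at -1.11, Jchain at -1.62 and Cxcl13 at -0.83, and Cd3e and Cd3d turned to 0.09 and 0.42. In bulk tissue, fewer cells of a type and less RNA per cell cannot be told apart.

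Let-7e against let-7d was the third comparison, and it shares its libraries with the comparisons above. After adjustment 0 genes passed in edgeR (0% called), 14 in DESeq2 and 0 in limma-voom, and 1097 (6.67%) had an unadjusted edgeR p below 0.05. Igkc at -2.09 (SE 0.765) and Jchain at -2.19 (SE 0.778) were lower at an unadjusted p under 0.05, each at an edgeR adjusted p of 0.7, where 3.32% of all genes were lower and 3.35% higher. None of the 6 let-7e libraries lay above the let-7d mean for either gene, and that mean held let-7d 2. Without let-7d 2 and control 6, 0 of the 10 were at that level, with Igkc at -1.67 and Jchain at -1.51, and Cxcl13 moved from -1.24 to -0.08. Cd79a and Ms4a1 turned from -0.50 and -0.71 to 0.25 and 0.37.

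**Figure D5:**
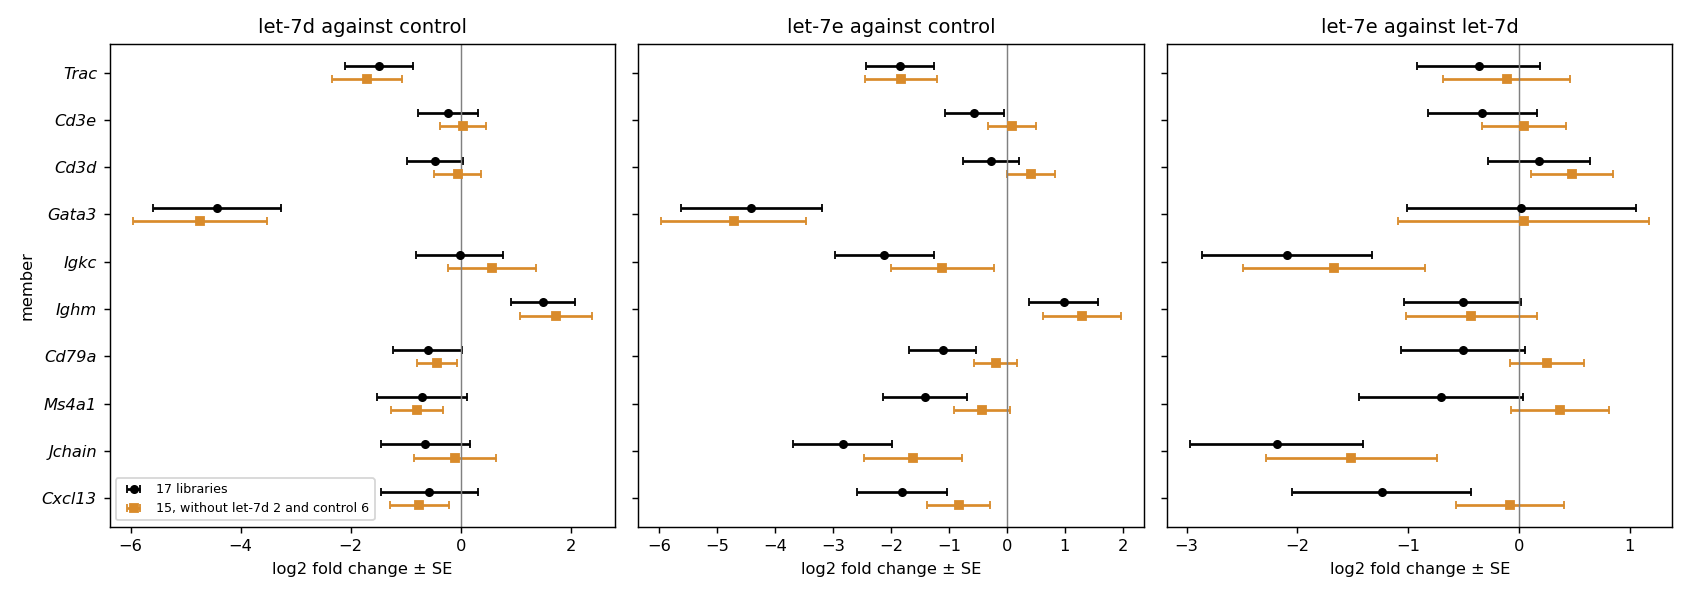
Log2 fold change with its SE for the 10 genes in the 3 comparisons, fitted to all 17 libraries (black circles) and without let-7d 2 and control 6 (orange squares). Gata3 lies near -4.4 in both comparisons with the controls, Ighm lies to the right in both, and Cd79a, Ms4a1 and Cxcl13 shift towards or past 0 in let-7e against let-7d once these libraries are left out.

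The lists are read against all genes, of which 58.1% were lower in let-7e against control and 57.5% in let-7d against control, with 7.99% and 7.08% lower at an unadjusted p under 0.05. In let-7e against control, 19 of 22 B cell genes were lower (median -0.9991, 7 at an unadjusted p under 0.05). So were 22 of 25 T cell genes (median -0.44, 1 at that level) and 10 of 12 plasma cell genes (median -0.12, 2 at that level). The median over all genes was -0.04. These fits carry the series term and include the early let-7d 2, and the lists were not refitted without that term. Without it the median of the 10 genes in this comparison moved from -1.61 to -0.98. Median summed levels were 235 CPM with let-7e and 191 CPM in the controls for the B cell list, to which Ebf1 gave most. They were 37.8 and 34.8 CPM for the T cell list, and 439 and 442 CPM for the plasma cell list. The lowest p on the B cell list belonged to Ly6d (-3.33) and Iglc1 (-5.005), on the T cell list to Lef1 (-1.82) and Cd5 (-1.12) and on the plasma cell list to Tent5c (-1.58) and Igha (-1.59). Control 3 held Ly6d at 13.8 CPM and control 6 held Iglc1 at 20.1 and Tent5c at 69.2 CPM, the 2 libraries noted above for genes of other organs. In let-7d against control, 16 of 22 B cell genes were lower (median -0.37, 2 at that level), 15 of 25 T cell genes (median -0.14, 0 at that level) and 8 of 12 plasma cell genes (median -0.09, 2 at that level). The T cell and plasma cell counts in this comparison lie near the share over all genes, and in both comparisons the share of T cell genes lower at that level was below that of all genes. The lowest p on the T cell list in let-7d against control belonged to Lcp2 (0.48) and Tcf7 (1.10). Tcf7 was at 13.5 CPM in let-7d 1 and 8.99 CPM in let-7d 5, where epithelium genes summed to 753.1 and 316.5 CPM. The remaining let-7d libraries held Tcf7 at 0.721 to 2.39 CPM, beside 0.870 to 2.74 CPM in the controls. Whether its level came from epithelium was not tested. On the plasma cell list the lowest p belonged to Tent5c (-1.32) and Xbp1 (-0.27). Of the 9 lymphoid tissue genes, 6 were higher with let-7d (median 0.18) and 5 with let-7e (median 0.05). Cxcl12 had the lowest p of these in let-7d against control, at -0.49 (SE 0.111, edgeR adjusted p = 0.456), and Ltbr, the lymphotoxin beta receptor, followed at 0.24. In let-7e against control Ltb, a lymphotoxin chain, was at -0.68 and Ltbr at 0.19. After edgeR adjustment 0 list genes passed in either comparison.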

How the data were processed

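The values are raw read counts for each Ensembl identifier, in whole numbers, which the authors deposited as a table already restricted by a CPM filter, as its name says, with STAR and the build GRCm38.p6 named in the submitters' processing notes. The STAR version, the counting tool and its strand setting are not given in the sources used here. A second deposited table of normalized values was not used. Libraries were matched to groups by the identifier in the labels. Of the 16452 genes, 16438 received a symbol and a position from GENCODE release M21 (GRCm38) and 14 did not.

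From the counts, CPM after TMM scaling and log2 CPM (prior count 2) were computed with edgeR 4.0.16 in R 4.3.3. A quasi-likelihood model with terms for group and for the early series of library identifiers was fitted to all 17 libraries, so that the 3 comparisons share one estimate of the spread (common biological coefficient of variation 0.36), and p-values were adjusted over all genes. The edgeR expression filter removed 0 genes. Intervals of fold changes are the estimate plus and minus 1.96 SE. Alternatives used DESeq2 1.42.0, limma 3.58.1, other samples, other terms and filters. Correlations used numpy 2.4.6 with 100000 permutations, and exact binomial intervals scipy 1.17.1. Tested on simulated counts for 16452 genes, the model recovered 65% of 2-fold and 90% of 4-fold changes in let-7d against control, with 12 false calls, 60% and 81% in let-7e against control, with 4, and 72% and 88% in let-7e against let-7d, with 5.

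The 10 genes and the marker lists (13 lists, 171 genes) were chosen with earlier results of these data known. All 10 genes are named. From each list of T cell, B cell, plasma cell and lymphoid tissue genes the text names the 3 of highest mean CPM and those of smallest unadjusted p in the comparisons with control, and for 5 genes the 4 others of highest Spearman rho with a mean of at least 1 CPM. Other list genes were named after their values were seen, and some results for single genes are not reported here. A library counts as high for a gene above 4 times the median CPM of the 17 libraries. Same-numbered libraries of different groups correlated between -0.33 and 0.496 in their deviations from the group means, so the numbers were not taken to pair them. Natural killer and innate lymphoid genes (14 measured) summed to 36.3 CPM in let-7d 2 and 48.7 CPM in control 6, within 17.7 to 54.2 CPM, lymphatic endothelium genes (5) to 79.8 and 96.2 CPM, mesothelium genes (8) to 147 and 128 CPM, and epithelium genes (10) to 18.0 and 38.5 CPM.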

Additional observations from a re-analysis of the deposited data

Results flagged for a closer look

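Among the 30 sets of libraries formed by a gene and a group, 8 held a library that Dixon's 95% limit flags. In these, the gap to the nearest neighbour took up more of the group's range than the limit allows. The limit gives about 1 in 20 by chance only for normally distributed values, and these CPM values are skewed. The genes were also chosen with earlier results of these data known, so the 8 are a description and not a test against chance. Let-7d 2 was such a library 5 times, with Igkc at 252.3 CPM (the other let-7d libraries between 7.12 and 84.1 CPM), Cd79a at 9.022 CPM (0.879 to 2.51), Ms4a1 at 12.45 CPM (0.562 to 1.215), Jchain at 101.7 CPM (2.38 to 12.4) and Cxcl13 at 50.07 CPM (0.541 to 2.43). Control 6 was so for Cd3e, at 2.536 CPM (the other controls between 0.798 and 0.933 CPM), and for Jchain, at 29.21 CPM (1.83 to 9.39). Control 3 was so for Gata3, at 123.0 CPM (1.09 to 1.80). The 8 do not count as 8 separate events, since the genes of a cell type share their library.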

How the results depend on the processing

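Of 855 fold changes of the 10 genes under the alternatives, 58 changed sign, 0 of them at an adjusted p under 0.05, and 16 of the 30 fold changes changed sign in none. The cause of the changes was not tested. For let-7d against control the log2 fold changes with another sign were as follows: 0.97 for Igkc, 0.40 for Ms4a1, 1.07 for Jchain and 1.46 for Cxcl13 with no series term, 0.0433 for Igkc in late libraries only, 0.0568 for Igkc with only the groups compared, and 0.11 for Cd3e, 0.93 for Igkc and 0.41 for Jchain in limma-voom. Another alternative left out 4 libraries. They were control 3 and 6, noted above for genes of other organs, and let-7d 1 and 5, where epithelium genes summed to 753.1 and 316.5 CPM. Without these 4 libraries, Cd3e was at 0.22, Cd3d 0.0507, Igkc 1.48, Cd79a 0.00563, Jchain 0.54 and Cxcl13 0.12. Without let-7d 2 and control 6, Cd3e was at 0.0448 and Igkc at 0.56. Leaving out one library moved Igkc between -0.66 and 0.74, Cd3e between -0.45 and 0.26, Cd3d between -0.64 and 0.11 and Jchain between -1.03 and 0.19, the upper ends all without control 6. For let-7e against control, Cd3d was at 0.14 without the 4 libraries, Cd3e at 0.09 and Cd3d at 0.42 without let-7d 2 and control 6, and Cd3d between -0.50 and 0.29 with one library left out. For let-7e against let-7d, Gata3 was at -0.00632 in DESeq2, -0.0278 in limma-voom, -0.00221 with no series term, -0.32 in late libraries only and -0.0530 without the 4 libraries. Late libraries only gave 0.30 for Cd3e, 0.0814 for Cd79a and 0.23 for Ms4a1, and leaving out let-7d 2 and control 6 gave 0.0452, 0.25 and 0.37. With one library left out, Cd3e lay between -0.59 and 0.0535, Cd3d between -0.00695 and 0.48, Gata3 between -0.16 and 0.15, Cd79a between -0.66 and 0.25 and Ms4a1 between -0.98 and 0.37. DESeq2 called 10, 15 and 14 genes in the 3 comparisons, none of them among the 10 genes. With replicate number as a block and no series term, 1 gene passed in let-7d against control, and Igkc was at 0.45, Jchain 0.18 and Cxcl13 0.20, but the numbers do not pair the libraries. At 4 to 62 reads per library, differences in Cd3e, Cd3d and low Trac values are limited by depth.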

Other observations

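The genes nearest to Trac, looked up after its values were seen, included Il7r (rho 0.836), Gimap3 (0.814) and Podnl1 (0.772). Il7r and Gimap3 are expressed in T cells, and Podnl1, which encodes a matrix protein, shared with Trac its peak in control 1 and had a Pearson r of 0.916 with it, against 0.67 for Il7r. Without control 1 and let-7e 6 that r was 0.815. Cd3d had Ms4a4b (rho 0.828), the chemokine gene Ccl5 (0.816), Lck (0.806) and Sag (0.804) nearest, so the 3 genes of the T cell receptor complex led to different neighbours.

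The ratio of Jchain to Cd79a per length ran from 0.145 in let-7e 6 to 6.53 in let-7d 2, with control 6 at the median of 1.95. That of Ms4a1 to Cd79a was 0.325 in let-7d 2, its highest, and 0.123 in control 6, with a median of 0.124. Igkc per length stood at 10.9 to 46.3 times Jchain, a spread of 4.27-fold, while Ighm against Igkc spread 70.6-fold, from 0.733 in control 3 to 51.8 in let-7e 6.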
